A study of Homo sapiens with 17 samples.

Results

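The genes described here are 7 oncofetal liver cancer genes: GPC3, IGF2BP1, IGF2BP2, IGF2BP3, LIN28B, SALL4 and HMGA2. They were taken by gene symbol, which gave 7 of the 63187 genes in the deposited RNA count table. The same symbols label 49 of the 58372 open chromatin peaks with deposited counts. Oncofetal genes are active in the fetal liver, are low or silent in the adult organ and are switched on again in many liver tumours.

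The cells were HepG2, a human liver tumour line that the labels give as wild type. Every culture had daily changes of medium and was kept for 4 days at 0, 2 or 10 µM 5-azacytidine. Once incorporated, the drug, an analogue of cytidine, holds DNA methyltransferases bound to DNA, and methylation is lost as cells divide. Untreated cells (0 µM) were the control of both treated doses. There were 9 RNA libraries, 3 per dose, and 8 libraries of ATAC-seq, which marks open chromatin by transposase insertion, with 3 of untreated cells, 3 of the 2 µM dose and 2 of the 10 µM dose. The design text calls the libraries of a dose biological replicates, but nothing says that they came from separate cultures. The p-values then measure only the spread between these libraries. HepG2 is 1 line, so the data describe 1 tumour background.

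RNA totals were 35553052 to 46430168 counts per library, and 2896671 to 7864321 ATAC reads per library were counted in peaks. The summed level of 21 hepatocyte identity genes was 22524 to 37803 CPM (counts relative to the scaled library size) at 0 µM, 16036 to 25325 CPM at 2 µM and 912 to 1341 CPM at 10 µM. The leukocyte marker PTPRC had 0 counts in every library. A list of 8 blood cell markers, leukocyte genes and the haemoglobin gene HBB, summed to 2335 to 3455 CPM at 0 µM, mostly from LYZ. Mitochondrial transcripts made up 0.275% of counts in 0 µM replicate 3 and 0.235% in 2 µM replicate 3, and 0.0683% to 0.150% in the other 7 libraries. Every change is a log2 ratio with the standard error (SE) of edgeR's quasi-likelihood fit, and a gene or peak is said to rise or fall where the adjusted p was under 0.05. In bulk RNA, fewer cells with a transcript and less of it per cell cannot be told apart.

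Of these genes, LIN28B, HMGA2 and the IGF2BPs meet in a small post-transcriptional circuit. LIN28B is an RNA-binding protein that blocks the maturation of let-7, a family of tumour-suppressing microRNAs, and the mRNAs of HMGA2, the IGF2BPs and LIN28B itself are known let-7 targets. The 3 IGF2BPs bind and stabilise mRNAs, many of them carrying N6-methyladenosine. GPC3 is a glypican, a heparan sulfate proteoglycan anchored to the cell surface that modulates Wnt and hedgehog signalling and serves as a liver tumour marker. SALL4 is a zinc finger factor of embryonic cells that recruits the NuRD corepressor, and HMGA2 is an architectural protein of chromatin that bends AT-rich DNA.

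The let-7 sequences are shown because their shared seed is what links LIN28B to HMGA2 and the IGF2BPs. The 9 mature sequences below, from RefSeq (GRCh38.p14), run 5′ to 3′ with the seed, bases 2 to 8, in capitals, and all hold 1 and the same seed.
let-7a: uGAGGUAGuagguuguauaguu
let-7b: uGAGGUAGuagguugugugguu
let-7c: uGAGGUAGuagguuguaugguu
let-7d: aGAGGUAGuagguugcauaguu
let-7e: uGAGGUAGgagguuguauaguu
let-7f: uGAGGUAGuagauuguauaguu
let-7g: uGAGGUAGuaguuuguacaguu
let-7i: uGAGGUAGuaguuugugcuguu
miR-98: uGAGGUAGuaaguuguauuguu

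LIN28 proteins bind a GGAG motif in the loop of let-7 hairpins. GGAG lay between the mature strands of 9 of the 12 let-7 family hairpins in the RefSeq table, and not in those of let-7a-3, let-7b and miR-98. The let-7i hairpin (chr12:62603686-62603769, plus strand) is printed with this GGAG in capitals, since its host transcript was measured. Mature microRNAs were not measured by these libraries.
let-7i hairpin: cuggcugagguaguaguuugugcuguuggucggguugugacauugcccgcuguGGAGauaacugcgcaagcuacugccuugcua

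Of the 7 genes, 6 passed the filter on low counts and SALL4 did not. At 10 µM against 0 µM, 0 of the 6 rose and 2 fell, GPC3 and HMGA2, where 23.0% of the 18999 tested genes rose and 25.1% fell. At 2 µM against 0 µM none of the 6 was called by edgeR in either direction, with 3.22% of genes called higher and 1.06% lower, and none had an unadjusted p under 0.05. At 10 µM against 2 µM 1 of the 6 fell, GPC3, with 16.8% of genes called higher and 21.6% lower. The median change of the 6 was -0.07 at 10 µM against 0 µM, and that of all tested genes was -0.02.

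**Figure D1:**
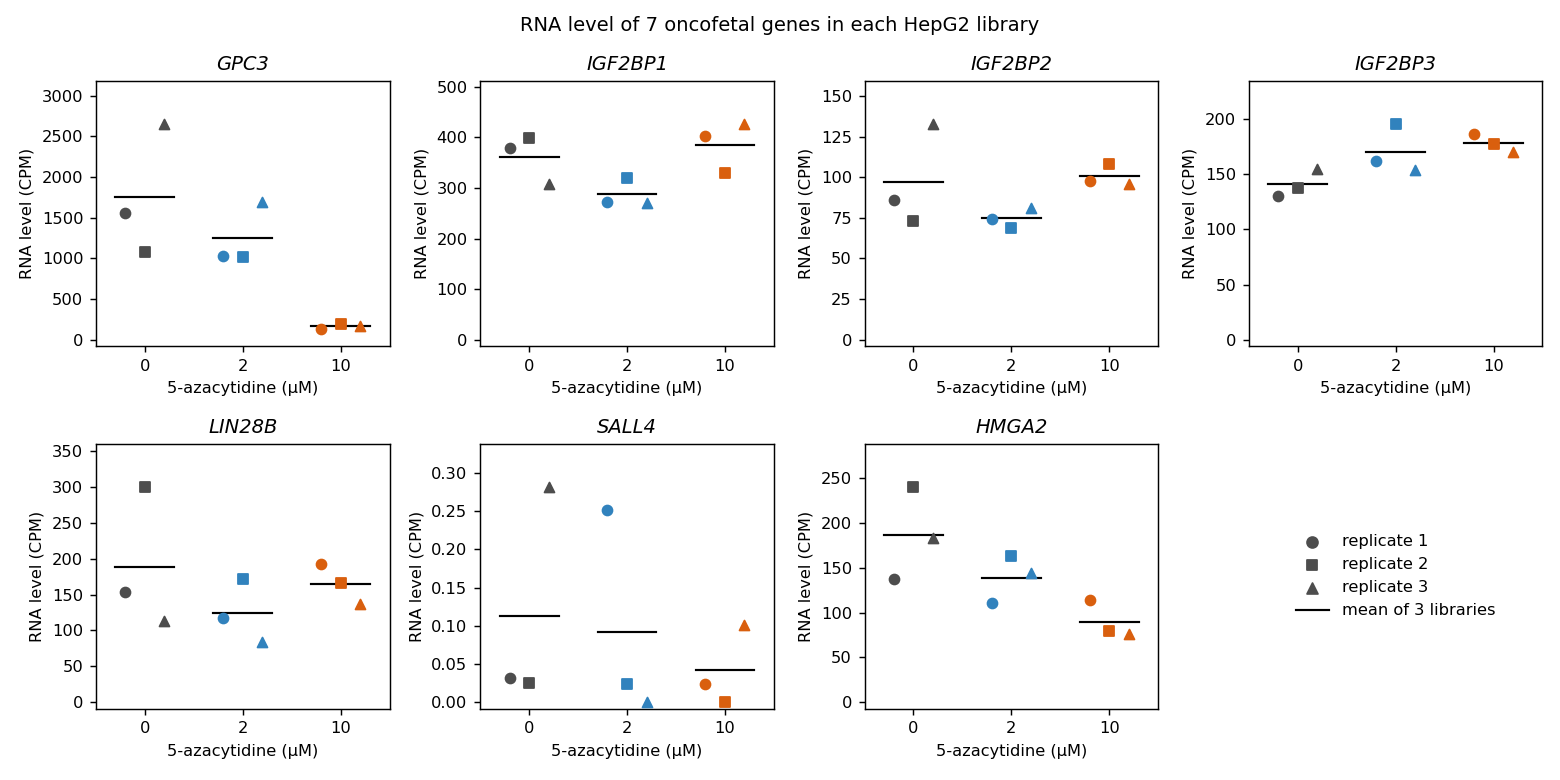
RNA level in CPM (linear axes that differ between panels) of the 7 genes against the dose of 5-azacytidine in µM, with 1 point per library, the shape giving the replicate number and the line the mean of 3 libraries. GPC3 lies between 136 and 195 CPM at 10 µM and at 1011 CPM or more in every other library, and SALL4 stays at or below 0.282 CPM in all 9.

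GPC3 lies on chrX:133535745-133985594 (hg38, minus strand) and had the largest change of the 7. Its level was 1552, 1072 and 2649 CPM in the 3 libraries at 0 µM, 1031, 1011 and 1695 CPM at 2 µM, and 136, 195 and 164 CPM at 10 µM. All libraries at 10 µM were below all others, while the 0 and 2 µM libraries overlapped. GPC3 fell 10.6-fold at 10 µM against 0 µM (log2 change -3.41, SE 0.336, adjusted p = 5.22e-06). Against 2 µM it fell 7.54-fold (log2 change -2.91, SE 0.329, adjusted p = 2.59e-05). At 2 µM against 0 µM the log2 change was -0.50 with a 95% interval of -1.16 to 0.17 (adjusted p = 0.428), which did not pass the test. GPC3 was lower at 2 µM in 3 of 3 same-numbered pairs of libraries, as were LIN28B, HMGA2, IGF2BP1 and IGF2BP2, and IGF2BP3 was higher in 2 of 3. How many of all genes were lower in 3 of 3 of those pairs was not determined. With those pairs as a block in a fit of the 0 and 2 µM libraries alone, GPC3 was at -0.42 (adjusted p = 0.180) and the other 5 did not pass either. The highest GPC3 level at 0 µM and at 2 µM was in the replicate 3 libraries, which also had the highest mitochondrial share. Without both of them the log2 change at 10 µM against 0 µM was -3.01. The hepatocyte identity genes fell with GPC3, as given below, and their part in its change was not tested.

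HMGA2 lies on chr12:65824460-65966291 (plus strand). Its level was 138, 240 and 183 CPM in untreated cells, 111, 163 and 144 at 2 µM, and 114, 79.1 and 76.7 at 10 µM. The libraries at 10 µM were below those at 0 µM without overlap, and the 2 µM libraries overlapped both. HMGA2 fell 2.08-fold at 10 µM against 0 µM (log2 change -1.05, SE 0.243, adjusted p = 0.00315). The log2 change at 2 µM against 0 µM was -0.43 (95% interval -0.95 to 0.09, adjusted p = 0.382). Against 2 µM the 10 µM change was -0.63 (95% interval -1.15 to -0.10, adjusted p = 0.056), which passed the threshold with no filter on low counts (adjusted p = 0.0284) and with only the libraries of those 2 doses (adjusted p = 0.0177). It also passed without replicates 1, 2 or 3 of 0 µM, without replicate 1 of 2 µM and without replicate 1 of 10 µM, at adjusted p between 0.037 and 0.0422.

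LIN28B lies on chr6:104937026-105083332 (plus strand). Its level was 153, 300 and 113 CPM in untreated cells, 117, 171 and 84.5 at 2 µM, and 192, 166 and 138 at 10 µM. The spread within 0 µM was wider than the distance between doses, and all pairs of doses overlapped. The log2 change was -0.60 (95% interval -1.32 to 0.12, adjusted p = 0.369) at 2 µM and -0.19 (95% interval -0.91 to 0.52, adjusted p = 0.657) at 10 µM against 0 µM. With scaling by total counts alone the latter was 0.04, and without replicate 2 of 0 µM it was 0.30, neither passing the test. LIN28A, the paralogue that also blocks let-7, had 6, 7 and 3 counts over the 3 libraries at 0, 2 and 10 µM, too few to be tested.

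IGF2BP1 lies on chr17:48996558-49056145 (plus strand). Its level was 379, 400 and 307 CPM in untreated cells, 272, 320 and 270 at 2 µM, and 402, 329 and 426 at 10 µM. The lowest level at 10 µM stood just above the highest at 2 µM, and both treated doses overlapped 0 µM. No comparison passed the threshold. The log2 change at 10 µM against 2 µM was 0.42 (95% interval 0.03 to 0.82, adjusted p = 0.0816). It passed with scaling by total counts alone (adjusted p = 0.0389) and without replicate 3 of 0 µM (adjusted p = 0.0482). Against 0 µM the log2 change was -0.33 (95% interval -0.72 to 0.06, adjusted p = 0.366) at 2 µM and 0.09 (95% interval -0.30 to 0.49, adjusted p = 0.699) at 10 µM.

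IGF2BP2 lies on chr3:185643130-185825042 (minus strand). Its level was 86.1, 72.8 and 133 CPM in untreated cells, 74.4, 68.7 and 81.1 at 2 µM, and 97.4, 108 and 96.1 at 10 µM. The 10 µM libraries lay above the 2 µM libraries without overlap, and replicate 3 of 0 µM was above all others. The log2 change at 10 µM against 0 µM was 0.05 (95% interval -0.42 to 0.51, adjusted p = 0.872). Against 2 µM the change at 10 µM was 0.43 (95% interval -0.04 to 0.89, adjusted p = 0.134). That change passed with only the libraries of those 2 doses (adjusted p = 0.0487) and without replicate 3 of 0 µM (adjusted p = 0.0361). At 2 µM against 0 µM the log2 change was -0.38 (95% interval -0.84 to 0.08, adjusted p = 0.383).

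IGF2BP3 lies on chr7:23310209-23470491 (minus strand). Its level was 131, 137 and 155 CPM in untreated cells, 162, 195 and 154 at 2 µM, and 187, 178 and 170 at 10 µM. All 10 µM libraries were above all 0 µM libraries, but the difference was small. The log2 change at 10 µM against 0 µM was 0.34 (95% interval -0.03 to 0.70, adjusted p = 0.115). With scaling by total counts alone it was 0.59 and passed (adjusted p = 0.0101). That scaling moved the median of all genes by 0.25 in the same comparison. The log2 change at 2 µM against 0 µM was 0.27 (95% interval -0.09 to 0.64, adjusted p = 0.426).

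SALL4 lies on chr20:51782331-51802521 (minus strand). It had 1, 1 and 11 counts at 0 µM, 10, 1 and 0 counts at 2 µM, and 1, 0 and 5 counts at 10 µM. A single library carried most of the counts at each dose, and none exceeded 0.282 CPM. No difference between doses could be tested at this depth.

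**Figure D2:**
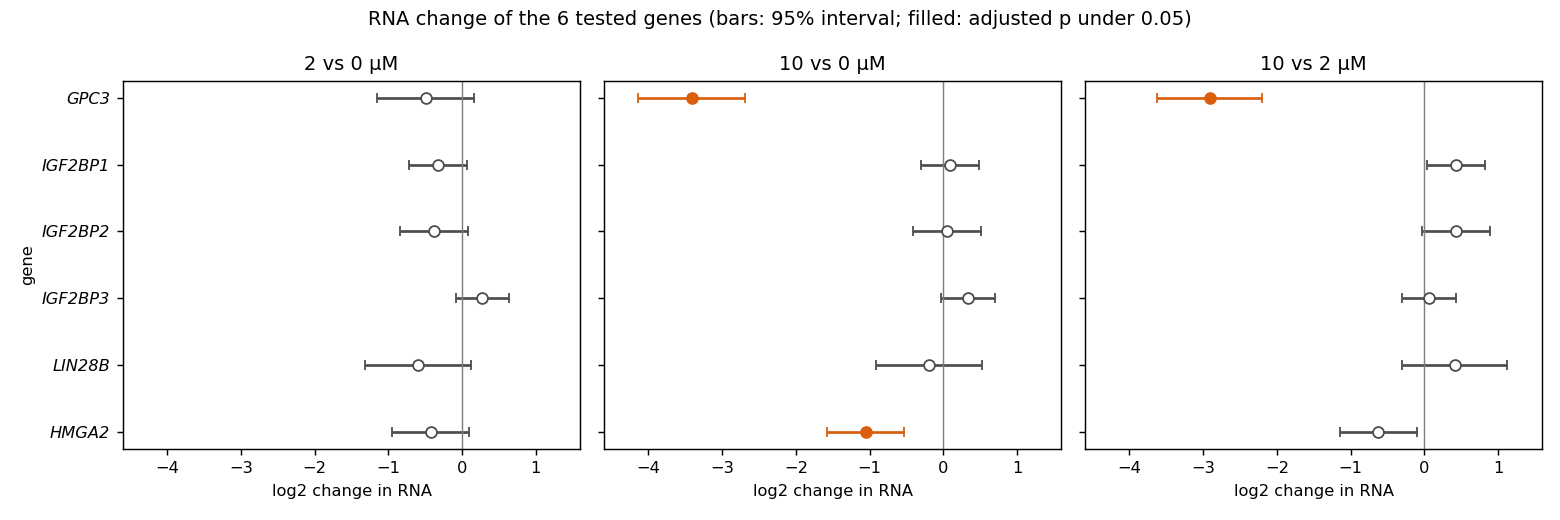
Log2 change in RNA (x axis) of the 6 tested genes (y axis) in the 3 comparisons, with bars for the 95% interval of the fit and filled points for an adjusted p under 0.05. Only GPC3 and HMGA2 have filled points, at -3.41 and -1.05 at 10 µM against 0 µM and, for GPC3, -2.91 at 10 µM against 2 µM.

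For each of the 6 genes, the genes with the most similar pattern were ranked by Pearson's r of log2 CPM over the 9 libraries among 13925 others. The points share their doses and libraries, so the values are descriptions only. GPC3 was closest to C3, ERBB3 and HADHA (r = 0.998, 0.997 and 0.996). C3, the central complement protein, was at 1724 ± 1277 CPM (SD, n = 3) in untreated cells and 44.7 ± 18.7 CPM at 10 µM. HMGA2 was closest to TMED5 (r = 0.971), KITLG (r = 0.954) and HSD17B12 (r = 0.954). LIN28B was closest to STON2 (r = 0.99), CCNC (r = 0.955) and NAA50 (r = 0.944). For IGF2BP1 they were UPRT, GRB2 and UBE2FP1 (r = 0.952 to 0.926), for IGF2BP2 they included PTPN23 and SUGP2 (r = 0.966 and 0.956), and for IGF2BP3 ZNF33B, VCAN and TMBIM6 (r = 0.967 to 0.96). Between the 6 genes themselves r ran from -0.58 for GPC3 and IGF2BP3 to 0.74 for GPC3 and HMGA2.

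The peaks of the 7 genes were 501 bp wide. Their number was 5 for GPC3, 10 for IGF2BP1, 11 for IGF2BP2, 15 for IGF2BP3, 1 for LIN28B, 2 for SALL4 and 5 for HMGA2, and the deposited annotation called 15 of the 49 promoters. All peaks passed the filter on low counts. At 2 µM against 0 µM 11 of the 49 rose and 2 fell, where 15.5% of all peaks rose and 7.30% fell. At 10 µM against 0 µM 13 rose and 12 fell, where 29.9% of all peaks rose and 27.6% fell. Between 2 and 10 µM 11 rose and 12 fell, where 27.5% rose and 27.6% fell. The count of rises at 2 µM was 5 without replicate 2 of 0 µM. Of the 15 promoter peaks, 5 rose and 1 fell at 10 µM against 0 µM, where 20.5% of all promoter peaks rose and 14.9% fell.

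**Figure D3:**
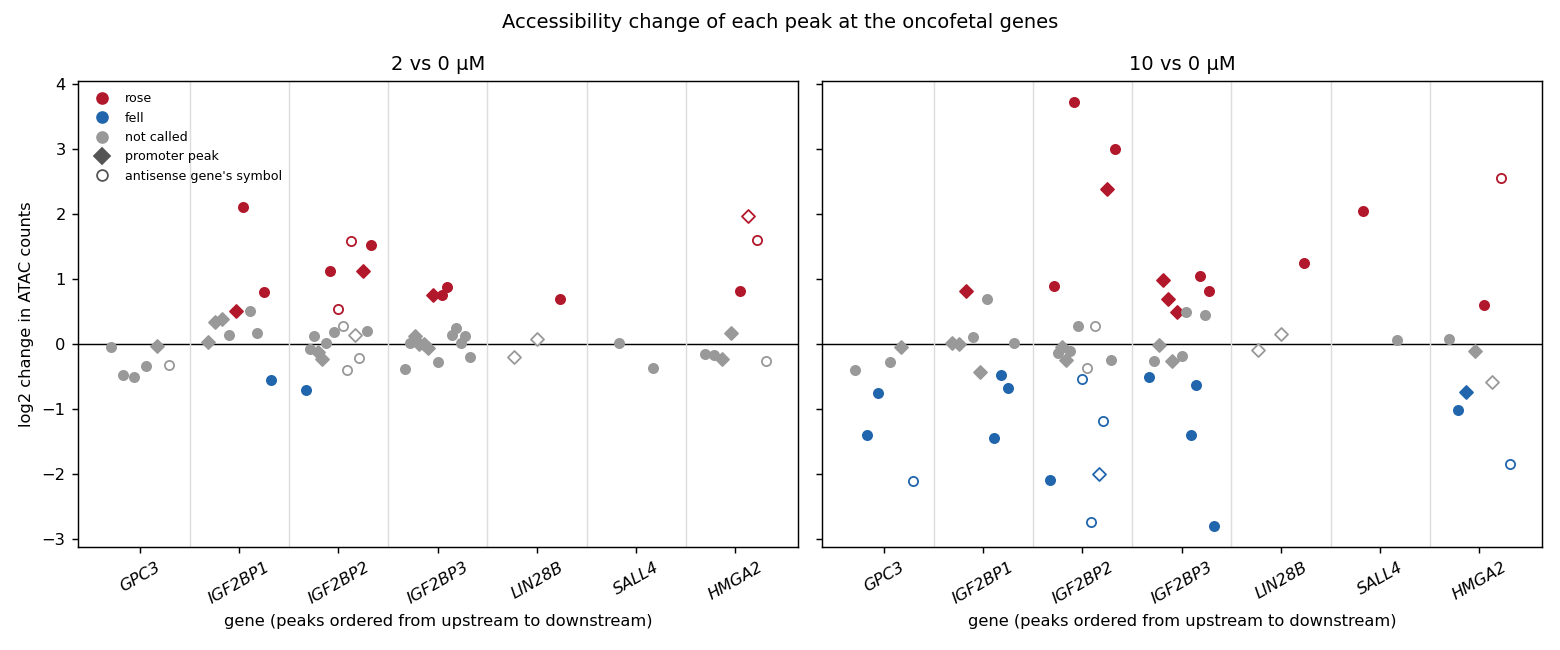
Log2 change in ATAC counts (y axis) of each peak at the 7 genes (x axis, ordered within a gene from upstream to downstream) at 2 µM and at 10 µM against 0 µM. Diamonds are promoter peaks, open symbols are peaks that lie at the gene but carry its antisense gene's symbol, red points rose, blue points fell and grey points were not called; the highest point at 10 µM is an IGF2BP2 intron peak at 3.72.

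At GPC3 the promoter peak (chrX:133985665-133986165) was at 23.8, 28.3 and 24.2 CPM in untreated cells, 24.7, 24.4 and 26.1 at 2 µM, and 26.7 and 22.8 at 10 µM. The doses overlapped, and its log2 change at 10 µM against 0 µM was -0.04 (SE 0.158, adjusted p = 0.857), while the RNA of the gene fell. Of the 4 peaks further upstream, 2 fell. The peak 38.6 kb upstream of the start (chrX:134023946-134024446) was at 11.2, 12.8 and 14.6 CPM in untreated cells, 11, 9.63 and 8.05 at 2 µM, and 4.16 and 5.87 at 10 µM. It fell by 1.40 (SE 0.247, adjusted p = 9.71e-06) on the log2 scale at 10 µM against 0 µM, without overlap. Against 2 µM it fell by 0.92 (adjusted p = 0.00404), which without replicate 1 of 10 µM was -0.61 and did not pass. The peak 21.4 kb upstream (chrX:134006760-134007260) fell by 0.75 (SE 0.209, adjusted p = 0.00261). The other two did not pass; the log2 change was -0.40 (adjusted p = 0.0977) 41.1 kb upstream and -0.27 at the nearest one (chrX:133994498-133994998). A peak inside GPC3, in the part annotated as intron 2 and labelled GPC3-AS1, was at 11.2, 10.9 and 13.1 CPM in untreated cells and 3.22 and 1.96 at 10 µM, and fell by 2.10 (SE 0.286, adjusted p = 1.2e-07). It was examined after its values were seen, as were all peaks below that carry an antisense gene's symbol. GPC3-AS1 itself had 0 counts in all 9 RNA libraries.

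At HMGA2 peaks just upstream of the start fell, and peaks inside the gene rose or fell. The peak centred 1.48 kb upstream of the start (chr12:65822728-65823228) was at 27.4, 27.2 and 29.4 CPM in untreated cells, 26.1, 26.5 and 23.0 at 2 µM, and 13.0 and 14.8 at 10 µM. It fell by 1.02 (SE 0.169, adjusted p = 3.56e-06) at 10 µM against 0 µM. The promoter peak 407 bp upstream (chr12:65823803-65824303) was at 22.6, 20.3 and 16.7 CPM in untreated cells, 16.2, 15.5 and 18.0 at 2 µM, and 12.7 and 10.7 at 10 µM. It fell by 0.74 (SE 0.188, adjusted p = 0.00109), whereas the promoter peak at the start itself did not pass (log2 change -0.10, adjusted p = 0.712). A peak in intron 1 rose by 0.82 (SE 0.196, adjusted p = 0.00252) at 2 µM and by 0.60 (SE 0.211, adjusted p = 0.0146) at 10 µM. The 10 µM rise did not pass with DESeq2 (adjusted p = 0.0709) nor without replicate 2 or 3 of 0 µM or replicate 2 of 10 µM (log2 changes 0.47, 0.54 and 0.38).

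Peaks deeper in HMGA2 carry the symbol HMGA2-AS1. The one annotated as its promoter, 57.7 kb into HMGA2, was at 3.88, 2.86 and 4.17 CPM in untreated cells, 17.2, 15.5 and 11 at 2 µM, and 1.61 and 3.48 at 10 µM. It rose by 1.97 (SE 0.267, adjusted p = 2.35e-06) at 2 µM against 0 µM and fell by 2.56 (SE 0.324, adjusted p = 6.88e-08) at 10 µM against 2 µM, which was -1.95 without replicate 1 of 10 µM. HMGA2-AS1 RNA had 0, 2 and 3 counts at 0 µM, 7, 8 and 13 counts at 2 µM, and 0, 0 and 2 counts at 10 µM, so that its 2 µM libraries were the highest too. These counts were too few to be tested, and without knowledge of strand in the counting they cannot be told apart from reads of HMGA2. A peak 67.9 kb into the gene rose by 2.56 (SE 0.217, adjusted p = 7.58e-12) at 10 µM, and one 71.9 kb in fell by 1.84 (SE 0.192, adjusted p = 6.00e-10).

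At IGF2BP2 the peak on the start was not called at any dose while 3 peaks inside the gene rose at both doses. Peaks inside the gene that carry the symbol IGF2BP2-AS1 fell or were not called at 10 µM against 0 µM. The promoter peak at the start (chr3:185824971-185825471) was at 36.6, 33.9 and 38.6 CPM in untreated cells, 30.6, 34.4 and 34.2 at 2 µM, and 38.0 and 31.8 at 10 µM, with a log2 change of -0.05 (SE 0.148, adjusted p = 0.805) at 10 µM against 0 µM. An internal peak annotated as a promoter, 136 kb downstream (chr3:185688742-185689242), was at 4.61, 4.35 and 6.63 CPM in untreated cells, 9.97, 14.1 and 10.5 at 2 µM, and 26.3 and 28.1 at 10 µM. No doses overlapped there, and it rose by 1.13 (SE 0.226, adjusted p = 0.000396) at 2 µM and by 2.39 (SE 0.209, adjusted p = 1.48e-11) at 10 µM.

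The largest rise of any peak of the 7 genes was in intron 2 of IGF2BP2, 17.2 kb downstream of the start (chr3:185807584-185808084). It was at 2.91, 1.77 and 2.08 CPM in untreated cells, 6.87, 3.09 and 4.50 at 2 µM, and 27.2 and 30.7 at 10 µM. It rose by 1.12 (SE 0.322, adjusted p = 0.0106) at 2 µM on the log2 scale. The rise at 10 µM was 3.72 (SE 0.251, adjusted p = 7.52e-14). The rise at 2 µM did not pass without replicate 2 of 0 µM (0.91) or replicate 1 of 2 µM (0.90). A peak in intron 10 (chr3:185658458-185658958) rose by 1.52 (SE 0.217, adjusted p = 4.83e-06) at 2 µM and by 3.01 (SE 0.197, adjusted p = 3.86e-14) at 10 µM. In the other direction, a peak 33.7 kb upstream (chr3:185858486-185858986) fell by 2.09 (SE 0.281, adjusted p = 9.49e-08) at 10 µM. Of the peaks in IGF2BP2 labelled IGF2BP2-AS1, the one annotated as that gene's promoter was at 11.6, 8.97 and 12.5 CPM in untreated cells and 1.61 and 4.35 at 10 µM, and fell by 1.99 (SE 0.308, adjusted p = 1.08e-06). Without replicate 1 of 10 µM its change was -1.33 and without replicate 2 it was -2.81. The largest fall among the IGF2BP2-AS1 peaks was 98.3 kb into IGF2BP2 (log2 change -2.73, SE 0.291, adjusted p = 9.34e-10). The peak 121 kb in fell by 1.19 (adjusted p = 8.39e-05). The one 79.3 kb in fell by 0.53 (adjusted p = 0.0304), a call that DESeq2 did not make (adjusted p = 0.054). Those 108 and 79.9 kb in were not called at 10 µM against 0 µM. The peak 108 kb in had means of 5.92, 17.5 and 6.89 CPM at 0, 2 and 10 µM. It rose by 1.59 (adjusted p = 1.58e-05) at 2 µM against 0 µM and fell by 1.31 (adjusted p = 9.68e-05) at 10 µM against 2 µM. The peak 79.3 kb in rose by 0.54 (adjusted p = 0.0278) at 2 µM, a call that DESeq2 did not make (adjusted p = 0.123). The other IGF2BP2-AS1 peaks were not called at 2 µM against 0 µM.

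At IGF2BP3 the peak on the start rose at 10 µM and was not called at 2 µM. The promoter peak on the start (chr7:23470230-23470730) was at 7.03, 6.39 and 7.01 CPM in untreated cells, 5.15, 7.91 and 7.09 at 2 µM, and 15 and 11.3 at 10 µM. It rose by 0.98 (SE 0.226, adjusted p = 0.00035) at 10 µM against 0 µM and by 0.97 (SE 0.236, adjusted p = 0.000772) against 2 µM. The neighbouring promoter peak 598 bp downstream rose by 0.69 (SE 0.222, adjusted p = 0.00793), a call that DESeq2 (adjusted p = 0.0596) and the fit without replicate 1 of 10 µM (0.51) did not make. A promoter peak 2.51 kb downstream rose by 0.76 (adjusted p = 0.00246) at 2 µM and by 0.49 (adjusted p = 0.0312) at 10 µM; the first call was lost without replicate 2 of 0 µM (0.54) and the second in 5 alternatives. The promoter peak 800 bp upstream did not pass (log2 change -0.01, adjusted p = 0.974). The largest fall was in intron 10 (chr7:23320172-23320672), where the level was 13.3, 10.9 and 9.85 CPM in untreated cells and 0.805 and 2.83 at 10 µM. It fell by 2.79 (SE 0.343, adjusted p = 1.64e-08). The 2 libraries at 10 µM differed there, and the change was -1.99 without replicate 1 and -3.84 without replicate 2 of that dose. A peak in intron 3, chosen after its values were seen, was at 11.4, 4.89 and 6.82 CPM in untreated cells, 15.8, 13.8 and 12 at 2 µM, and 2.15 and 3.70 at 10 µM. It rose by 0.88 (SE 0.249, adjusted p = 0.00921) at 2 µM and fell by 1.39 (SE 0.344, adjusted p = 0.000775) at 10 µM. The rise did not pass with DESeq2 (adjusted p = 0.0586) nor without replicate 2 of 0 µM (0.56).

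At IGF2BP1 the peak on the start (chr17:48996305-48996805) was at 26.2, 30.7 and 27.8 CPM in untreated cells, 22.7, 30.9 and 32.2 at 2 µM, and 31.0 and 26.3 at 10 µM, with overlap between all doses and a log2 change of 0.02 (adjusted p = 0.92) at 10 µM. A promoter peak 1.5 kb downstream rose by 0.82 (SE 0.204, adjusted p = 0.000827) at 10 µM. A promoter peak 17.2 kb into the gene rose by 0.51 (adjusted p = 0.0431) at 2 µM against 0 µM, a call lost in 9 alternatives, and fell by 0.94 (adjusted p = 0.000372) at 10 µM against 2 µM. Introns held peaks that moved with dose in both directions. A peak in intron 2, 17.8 kb downstream (chr17:49014136-49014636) and chosen after its values were seen, was at 3.40, 2.31 and 2.84 CPM in untreated cells, 15.1, 8.94 and 11.9 at 2 µM, and 4.16 and 5.00 at 10 µM. It rose by 2.10 (SE 0.269, adjusted p = 9.48e-07) at 2 µM and fell by 1.40 (SE 0.276, adjusted p = 6.53e-05) at 10 µM against 2 µM. A peak in intron 5 (chr17:49035679-49036179) rose by 0.80 (SE 0.179, adjusted p = 0.0012) at 2 µM and fell by 0.67 (SE 0.221, adjusted p = 0.00945) at 10 µM against 0 µM. One in intron 2, 25.2 kb downstream, fell by 1.45 (SE 0.252, adjusted p = 8.01e-06) at 10 µM.

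The only peak with the LIN28B symbol lies 109 kb into the gene (chr6:105045506-105046006). It was at 10.9, 10.3 and 14.4 CPM in untreated cells, 17.9, 23.0 and 17.5 at 2 µM, and 25.8 and 31.1 at 10 µM, in that order of dose without overlap. It rose by 0.69 (SE 0.181, adjusted p = 0.0053) at 2 µM and by 1.25 (SE 0.182, adjusted p = 3.68e-07) at 10 µM. The 2 µM rise was 0.54 without replicate 2 of 0 µM and did not pass (adjusted p = 0.0787). The 2 promoter peaks near the LIN28B start, 3.63 and 4.53 kb into the RefSeq gene, carry the symbol LIN28B-AS1. They were at 21.6, 21.8 and 21.8 CPM and at 16.2, 19.7 and 21.2 CPM in untreated cells, and neither was called at 10 µM (log2 changes -0.08 and 0.16, adjusted p = 0.693 and 0.456).

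SALL4 had no peak annotated as its promoter among those with counts. A peak 13.2 kb upstream (chr20:51815478-51815978) was at 5.34, 4.08 and 5.30 CPM in untreated cells, 5.84, 5.50 and 4.09 at 2 µM, and 16.6 and 23.9 at 10 µM. It rose by 2.05 (SE 0.233, adjusted p = 3.52e-09) at 10 µM and did not pass at 2 µM (log2 change 0.02, adjusted p = 0.97). The peak beyond the 3′ end did not pass at 10 µM (log2 change 0.07, adjusted p = 0.824). SALL4 RNA had 13, 11 and 6 counts over the 3 libraries at 0, 2 and 10 µM.

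**Figure D4:**
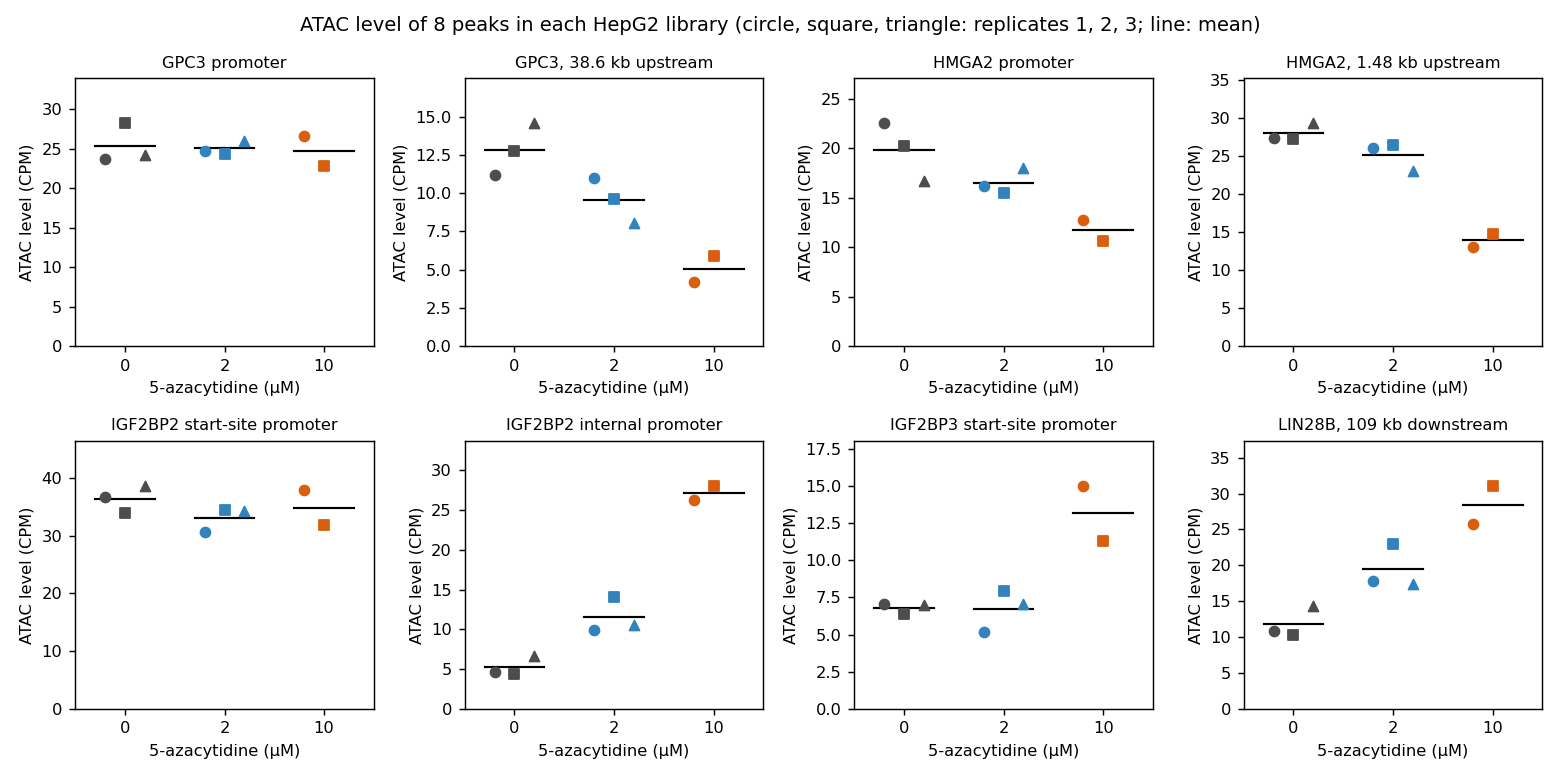
ATAC level in CPM (linear axes from 0) of 8 peaks against the dose of 5-azacytidine in µM, with 1 point per library and the mean as a line. The HMGA2 promoter panel is the peak 407 bp upstream of the start. The GPC3 and IGF2BP2 start-site peaks overlap across doses, while the IGF2BP2 internal promoter rises from at most 6.63 CPM in untreated cells to 26.3 and 28.1 CPM at 10 µM.

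Promoter sequences are shown for their CG dinucleotides, the sites at which DNA methyltransferases add methyl groups. RefSeq (GRCh38.p14) promoter entries matched 3 of the 7 genes. RefSeq lists 2 starts each for IGF2BP2 and LIN28B, and the entry that counted peaks overlap is printed. The IGF2BP3 and IGF2BP2 entries lie before the gene starts given above, whereas the LIN28B entry belongs to a start 3.94 kb into the gene as given above. The 250 bases before each of these starts are printed 5′ to 3′ on the gene's strand with each CG, a motif that reads the same on both strands, in capitals.
IGF2BP3, chr7:23470492-23470741, minus strand: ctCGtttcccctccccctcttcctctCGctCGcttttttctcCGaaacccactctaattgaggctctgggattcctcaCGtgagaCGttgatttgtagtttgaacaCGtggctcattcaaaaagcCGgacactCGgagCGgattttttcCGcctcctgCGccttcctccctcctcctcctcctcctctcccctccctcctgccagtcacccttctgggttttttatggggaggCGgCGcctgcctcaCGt
IGF2BP2, chr3:185825043-185825292, minus strand: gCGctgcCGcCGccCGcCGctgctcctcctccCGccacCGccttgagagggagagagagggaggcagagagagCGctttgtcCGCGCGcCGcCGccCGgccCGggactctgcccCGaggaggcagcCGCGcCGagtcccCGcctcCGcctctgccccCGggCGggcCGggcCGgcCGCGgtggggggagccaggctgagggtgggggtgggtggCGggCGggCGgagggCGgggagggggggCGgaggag
LIN28B, chr6:104940715-104940964, plus strand: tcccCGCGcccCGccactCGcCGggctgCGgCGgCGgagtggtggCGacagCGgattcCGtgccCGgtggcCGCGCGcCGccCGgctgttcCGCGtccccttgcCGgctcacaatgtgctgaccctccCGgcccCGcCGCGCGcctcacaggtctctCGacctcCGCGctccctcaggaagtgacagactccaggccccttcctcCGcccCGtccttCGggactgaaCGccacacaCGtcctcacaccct

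The IGF2BP3 window, whose peak rose at 10 µM, holds 15 CG. At least as many are in 42.9% of the 35116 promoter windows of that length. The IGF2BP2 and LIN28B windows, whose overlapping peaks were not called at 10 µM, hold 32 and 33 CG, which 9.52% and 8.15% of windows reach. The entries not printed hold fewer, 2 CG for IGF2BP2 (85.3% of windows have as many) and 6 CG for LIN28B (61.9%), and no counted peak of these genes covers them. A CG of any number is in 93.9% of windows. The counted peaks cover 239 bases of the IGF2BP3 window, 250 of the IGF2BP2 window and 188 of the LIN28B window. DNA methylation was not measured in these libraries, and a link between CG number and peak change was not tested.

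Around GPC3, 26 of 32 genes of heparan sulfate and glypican biology could be tested. At 10 µM against 0 µM 7 rose and 9 fell (median log2 change -0.27), where 23.0% of all tested genes rose and 25.1% fell. Of the other glypicans, 1 rose and 1 fell. GPC6 was at 49.1 ± 8.91 CPM (SD, n = 3) in untreated cells and 24.5 ± 7.53 CPM at 10 µM and fell by 1.01 (adjusted p = 0.00321). GPC1 rose by 0.63 (adjusted p = 0.0382), GPC2 and GPC4 did not pass, and GPC5 had at most 19 counts over the libraries of a dose. NOTUM, the secreted enzyme that removes the lipid from Wnt proteins, fell from 387 ± 90.3 CPM to 18.2 ± 2.85 CPM (log2 change -4.41, adjusted p = 5.12e-07). HS6ST1, a heparan sulfate 6-O-sulfotransferase, fell by 2.07 (adjusted p = 3.77e-06), and SULF2, which removes such sulfates, fell by 1.94 (adjusted p = 0.0027). LRP1, an endocytic receptor of GPC3, fell by 2.79 (adjusted p = 2.5e-05). FURIN, the protease that cleaves GPC3, rose by 1.47 (adjusted p = 0.00312) at 2 µM and by 1.55 (adjusted p = 0.000105) at 10 µM.

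Of 24 genes of let-7 processing and let-7 host transcripts, 20 were tested. At 10 µM against 0 µM 7 rose and 1 fell (median 0.36), where 23.0% of all tested genes rose and 25.1% fell. At 2 µM, where 3.22% of all tested genes rose and 1.06% fell, edgeR called 0 of the 20. An unadjusted p under 0.05 was reached by 4 of them, and the share of all genes that reach it was not determined. BCDIN3D was at 0.81 (adjusted p = 0.0912) and rose with DESeq2 (adjusted p = 0.0377) and with scaling by total counts (adjusted p = 0.0475). KHSRP was at -0.57 (adjusted p = 0.114) and fell without replicate 3 of 0 µM (adjusted p = 0.0238). MIRLET7IHG, the host transcript of let-7i printed above, was at 1.29 ± 0.566 CPM in untreated cells and 5.48 ± 0.912 CPM at 10 µM and rose by 2.08 (SE 0.434, adjusted p = 0.0016). DGCR8, the partner of DROSHA in primary microRNA cleavage, rose by 1.33 (adjusted p = 0.000764). TUT7, a terminal uridylyltransferase that acts on let-7 precursors, rose by 0.77 (adjusted p = 0.00268), while TUT4 (log2 change -0.30, adjusted p = 0.217) and the exonuclease DIS3L2 (0.38, adjusted p = 0.0959) did not pass. HNRNPA1, an RNA-binding protein that binds let-7 precursors, was the gene that fell (log2 change -1.36, adjusted p = 6.01e-05). Without replicate 3 of 0 µM 3 genes of this list fell, and 2 fell in the fit with replicate number as a blocking term.

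Among 45 let-7 target genes other than the 7, 40 were tested. At 10 µM 11 rose and 15 fell (median -0.02), where 23.0% of all tested genes rose and 25.1% fell. At 2 µM, where 3.22% of all tested genes rose and 1.06% fell, 2 of the 40 rose and 1 fell. These few calls depended on single libraries: 0 rose without replicate 2 of 2 µM and 1 without replicate 1 of 0 or of 2 µM, while 0 fell without replicate 1 of 2 µM, 2 without replicate 2 of 0 µM or replicate 3 of 2 µM, and 4 without replicate 3 of 0 µM. Without both replicate 3 libraries 5 fell, and with the replicate block 2 fell. The lists were chosen with earlier results of these libraries known, so their counts are no independent evidence of a direction. The 4 with the smallest adjusted p at 10 µM all fell: AURKB, a mitotic kinase (log2 change -4.17), DUSP9, a phosphatase of MAP kinases (-3.38), TRIM71, a fetal RNA-binding ubiquitin ligase (-1.66), and RRM2, a ribonucleotide reductase subunit (-3.01). Their adjusted p lay between 9.63e-07 and 7.17e-06 for DUSP9, TRIM71 and RRM2, and was 5.15e-07 for AURKB. NR6A1, a nuclear receptor of embryonic cells, fell by 0.88 (adjusted p = 0.011) at 2 µM, a call lost without replicate 1 of 2 µM (adjusted p = 0.0571), and by 1.34 (adjusted p = 3.51e-05) at 10 µM. CCND2, a D-type cyclin, rose by 1.94 (adjusted p = 0.00898) at 2 µM, a call lost without replicate 2 of 2 µM (adjusted p = 0.0508), and by 1.35 (adjusted p = 0.00605) at 10 µM. AURKB and RRM2 are also proliferation genes, and the part of proliferation in these counts was not tested.

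Of 29 IGF2BP client mRNAs and m6A factors, 28 were tested. At 10 µM 7 rose and 8 fell (median -0.18), where 23.0% of all tested genes rose and 25.1% fell. At 2 µM 1 rose, the imprinted RNA H19, from 4 counts over the 3 libraries at 0 µM to 2195 at 2 µM. None of the 28 fell at 2 µM, where 3.22% of all tested genes rose and 1.06% fell. The change was below 0 for 24 of the 28, and 8 were lower at an unadjusted edgeR p under 0.05. Their median change was -0.28, and that of all tested genes was -0.01. The shares of all tested genes that meet these limits were not determined, so the counts show no excess in this list. Between 0 and 5 fell in the alternatives. The 4 with the smallest adjusted p at 10 µM are genes of dividing cells. MKI67, a marker of dividing cells, was at 201 ± 19.2 CPM in untreated cells and 8.86 ± 3.28 CPM at 10 µM and fell by 4.50 (adjusted p = 4.5e-07). KIF11, a spindle motor, fell by 3.26, FOXM1, a cell cycle factor, by 3.92, and TK1, thymidine kinase, by 3.83. IGF2, the growth factor mRNA that gave this family its name, was at 206 ± 171 CPM in untreated cells and 30.4 ± 5.92 CPM at 10 µM and fell by 2.76 (adjusted p = 0.000513). At 2 µM IGF2 did not pass (log2 change -1.76, adjusted p = 0.055) but fell in the fit with the replicate block over all doses (adjusted p = 0.0298).

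Of 29 genes of the SALL family, NuRD, the SALL4-degrading cereblon ligase and pluripotency, 26 were tested. At 10 µM 7 rose and 6 fell (median -0.04), where 23.0% of all tested genes rose and 25.1% fell. At 2 µM edgeR called 0 of the 26, where it called 3.22% of all tested genes higher and 1.06% lower. DESeq2 called 2, and 3 had an edgeR p under 0.05 before adjustment. The shares of all genes for these last counts were not determined. The NuRD helicase gene CHD5 was at 2.08 (adjusted p = 0.0817) with edgeR and rose with DESeq2 (adjusted p = 0.00641), with no filter on low counts, with scaling by total counts and without replicate 3 of 0 µM. SALL1 fell with DESeq2 at 2 µM (log2 change -0.83, adjusted p = 0.0447). At 10 µM SALL2 fell by 1.33 (adjusted p = 0.000494), SALL1 did not pass (log2 change 0.54, adjusted p = 0.0981), and SALL3 had at most 1 count over the libraries of a dose. The NuRD helicase CHD4 rose by 0.83 (adjusted p = 0.00215), and the histone-binding subunit RBBP7 fell by 1.22 (adjusted p = 6.39e-05). The deacetylases HDAC1 and HDAC2 and cereblon (CRBN) did not pass (log2 changes -0.05, -0.16 and 0.07). KLF4 rose by 3.49 (adjusted p = 6.66e-05), and POU5F1 fell from 2.58 ± 0.919 to 0.266 ± 0.252 CPM (log2 change -3.24, adjusted p = 0.000531), with a change of -4.36 without replicate 2 of 10 µM.

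Of 22 genes linked to HMGA2, 20 were tested. At 10 µM 8 rose and 10 fell (median -0.49), where 23.0% of all tested genes rose and 25.1% fell. HMGA1, the paralogue of HMGA2, went the other way from HMGA2. HMGA1 was at 209 ± 43.5 CPM in untreated cells, 380 ± 130 CPM at 2 µM and 880 ± 36.8 CPM at 10 µM, and rose by 2.07 (SE 0.244, adjusted p = 2.13e-05) at 10 µM. CCNA2 and CCNB2, cyclins of late cell cycle phases, fell by 4.80 and 4.55, E2F1 fell by 2.62, and HMGB2, a chromatin protein abundant in dividing cells, fell by 4.56. CDKN2A, a cell cycle inhibitor locus, rose by 2.69 (adjusted p = 0.00202) at 2 µM and by 3.30 (adjusted p = 1.85e-05) at 10 µM. ZEB2, a factor of epithelial-mesenchymal transition, was at 0.119 ± 0.0641 CPM in untreated cells and 4.89 ± 1.32 CPM at 10 µM and rose by 5.33 (adjusted p = 8.78e-06).

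Of 34 other fetal liver and hepatoblast genes, 27 were tested. At 10 µM 5 rose and 17 fell (median -1.27), where 23.0% of all tested genes rose and 25.1% fell. At 2 µM, where 3.22% of all tested genes rose and 1.06% fell, 4 of the 27 rose and 4 fell. The number that rose was 2 without replicate 1 or 2 of 2 µM. The number that fell was 2 without either of these, 7 without replicate 2 of 0 µM and 8 without replicate 3 of 2 µM, 7 with DESeq2 and 10 with no filter. The smallest adjusted p at 2 µM were of imprinted RNAs that rose, H19 (adjusted p = 1.91e-05) and MEG3 (adjusted p = 0.000347). H19 had 4, 2195 and 38 counts over the 3 libraries at 0, 2 and 10 µM, and MEG3 had 1, 1095 and 90. Both were higher at 2 µM than at either other dose. AFP, the fetal counterpart of albumin and a serum marker of liver cancer, was at 6398 ± 789 CPM (SD, n = 3) in untreated cells, 1669 ± 323 CPM at 2 µM and 73.4 ± 20.6 CPM at 10 µM. AFP fell at 2 µM (log2 change -1.94, adjusted p = 0.000778) and at 10 µM (-6.45, adjusted p = 6.33e-08), whereas GPC3 was not called at 2 µM. Whether the 2 genes differ in their change was not tested. DLK1, a hepatoblast surface protein, fell by 3.66 (adjusted p = 1.79e-06), and PEG3, an imprinted zinc finger gene, fell by 5.44 (adjusted p = 4.11e-07), both at 10 µM. In the fit of 0 and 2 µM libraries alone with a blocking term for replicate number, 2 rose and 7 fell at 2 µM.

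Of 22 hepatocyte identity genes 21 were matched and tested. At 10 µM 19 fell (median -4.25) and at 2 µM 3 fell, where 25.1% and 1.06% of all tested genes fell. NR1H4, the bile acid receptor, was at 89.5 ± 11.2 CPM in untreated cells and 1.06 ± 0.555 CPM at 10 µM (log2 change -6.38, adjusted p = 1.11e-07). The 3 genes that fell at 2 µM were TTR (log2 change -1.68, adjusted p = 0.02), CPS1 (-0.75, adjusted p = 0.0235) and APOB (-1.16, adjusted p = 0.0269), the last named after its value was seen. APOB, the structural protein of very low density lipoprotein, fell by 5.47 (adjusted p = 1.36e-07) at 10 µM, and the plasma proteins APOH (log2 change -5.79) and FGG (-6.43) fell too. The count of 3 at 2 µM was 0 without replicate 1 of 0 µM, without replicate 1 of 2 µM or without replicate 2 of 2 µM, 1 with only the libraries of those 2 doses, and 6 without both replicate 3 libraries of 0 and 2 µM.

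Fibroblast, stellate and endothelial markers were low or absent, while blood cell and cholangiocyte markers summed to higher levels. The part of these markers in the results was not tested. The summed level of the 8 blood cell markers was 2335 to 3455 CPM in untreated cells, 1124 to 1699 CPM at 2 µM and 58 to 89.8 CPM at 10 µM. LYZ, the secreted lysozyme, made up most of it with 2747 ± 611 CPM in untreated cells, and HBB had 0 counts in all libraries. The 9 fibroblast and stellate markers summed to 29.9 to 56.4 CPM in untreated cells, 29.1 to 52.2 CPM at 2 µM and 10.6 to 15.5 CPM at 10 µM. The 7 endothelial markers summed to 1.49 to 10.5 CPM, 2.91 to 8.74 CPM and 0.407 to 0.95 CPM, with STAB2 and CLEC4G at 0 counts in all libraries. The 7 cholangiocyte markers summed to 1024 to 1292 CPM, 1029 to 1354 CPM and 516 to 1207 CPM, with CFTR at 0 counts in all libraries.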

How the data were processed

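RNA libraries (9) and ATAC libraries (8) of HepG2 cells were grouped by dose of 5-azacytidine as the labels give it. The authors deposited whole-number counts per gene and per peak, which were tested, and a normalized signal table of 21986 genes. The deposited signal values were used only for a check, in which the columns named 10 µM replicates 2 and 3 held each other's counts. The submitters' processing notes name HISAT2 2.2.1, HTSeq 2.0.4, DiffBind 3.12.0, DESeq2 1.42.1 and hg38, with no role. No source used here gives the strand setting of the counting, and reads of overlapping or antisense genes may be mixed.

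Counts were filtered with filterByExpr, scaled by TMM and fitted over all doses with edgeR 4.0.16 (quasi-likelihood F-test, R 4.3.3). P-values were adjusted by Benjamini-Hochberg over 18999 genes or 58372 peaks, with a threshold of 0.05. SE is the log2 change divided by the square root of F, and the prior count was 0.125. Correlations used log2(CPM + 0.5) of genes with a mean of at least 1 CPM. Symbols were matched for 62030 of 63187 gene identifiers. Scripts were tested on simulated data.

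The members and gene lists were chosen with earlier results of these data known. In each list, up to 4 genes with the smallest adjusted p at 10 µM and 2 at 2 µM were named, with partners of the 7 genes. Named peaks were promoter peaks and up to 3 others per gene with the smallest adjusted p at 10 µM against 0 µM.

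Same-numbered RNA libraries at 0 and 2 µM deviated together (r = 0.325, 0.388 and 0.359), and those numbers were taken as pairs. Other pairings gave r between -0.0986 and 0.0762 in RNA and -0.226 and 0.137 in ATAC and were not. The main fit had no block, so its p-values at 2 µM against 0 µM ignore these pairs, which entered the tests only in alternatives. Alternatives were RLE and total-count scaling, DESeq2 1.42.0, no filter, a replicate block, only the compared doses, each library left out, both replicate 3 libraries of 0 and 2 µM left out, and peaks assigned by position. Scaling by total counts alone moved the median RNA change of all genes by 0.158 (2 µM) and 0.253 (10 µM) against 0 µM.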

Additional observations from a re-analysis of the deposited data

How the results depend on the processing

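GPC3 and HMGA2 fell at 10 µM against 0 µM in all 16 alternatives, with log2 changes of -3.67 to -3.01 and -1.25 to -0.81. Of 294 alternative values for the tested genes 273 kept direction and call, 13 gained a call, none lost one and 8 changed sign without being called. Of 1288 alternative values for peaks 1199 kept both, 58 lost a call, 7 gained one and 24 changed sign.

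The count of genes that rose at 10 µM against 0 µM was 1 instead of 0 with total-count scaling. Against 2 µM it was 1 instead of 0 with total-count scaling, with only those doses and without both replicate 3 libraries, and 0 to 2 when 1 library was left out. The count that fell there was 2 instead of 1 with no filter and with only those doses, and 1 to 2 when 1 library was left out. Peaks that fell at 2 µM numbered 4 with RLE scaling, 1 with DESeq2, 5 with only those doses and 0 when assigned by position (5000 bp around the RefSeq gene) instead of 2, and 1 to 5 when 1 library was left out. Peaks that rose at 2 µM numbered 5 to 12 when 1 library was left out. Peaks that fell at 10 µM against 2 µM numbered 19 by position instead of 12, and 9 to 12 when 1 library was left out. Total-count scaling called 904 genes higher and 94 lower at 2 µM instead of 611 and 202, and 5788 and 3747 at 10 µM against 0 µM instead of 4371 and 4767. At 10 µM against 2 µM it called 3783 and 3705 instead of 3193 and 4112. The cause of these shifts was not tested.

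Sign changes were all of uncalled values. At 10 µM against 0 µM, IGF2BP1 was -0.031 without both replicate 3 libraries (-0.032 to 0.21 leaving out 1 library), IGF2BP2 -0.13 to 0.32 leaving out 1, and LIN28B 0.039 with total-count scaling (-0.48 to 0.30 leaving out 1). IGF2BP3 at 10 µM against 2 µM was -0.027 without both replicate 3 libraries (-0.021 to 0.18 leaving out 1). The IGF2BP1 start peak at 10 µM was -0.020 with RLE scaling and DESeq2, -0.049 with total-count scaling and -0.034 with only those doses (-0.13 to 0.048 leaving out 1). The next IGF2BP1 promoter peak was -0.043, -0.059, -0.070 and -0.057 under RLE, DESeq2, total counts and only those doses (-0.39 to 0.16 leaving out 1). The SALL4 peak beyond the 3′ end was -0.0011 with total-count scaling and -0.074 with the replicate block (-0.11 to 0.25 leaving out 1). Leaving out 1 library gave -0.18 to 0.010 for the GPC3 promoter, -0.052 to 0.15 for the HMGA2 peak 83.0 kb upstream, -0.084 to 0.57 for an IGF2BP2-AS1 peak and -0.086 to 0.24 for a LIN28B-AS1 peak.

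With the replicate number as a block, GPC3 was -3.32 (adjusted p = 3.08e-06) and HMGA2 -1.02 (adjusted p = 0.00469) at 10 µM against 0 µM. With the block and only 0 and 2 µM libraries, an alternative chosen after seeing the data, GPC3 was -0.42 (adjusted p = 0.180). The block changed no call of the 6 tested genes among the 7. Calls of listed genes did change, and CPS1 did not pass at 2 µM in the blocked fit of 0 and 2 µM libraries (adjusted p = 0.0512). Depth limits SALL4 and the antisense RNAs of GPC3, HMGA2 and IGF2BP2, whose counts could not be tested. LIN28B-AS1 was tested and not called in any comparison (adjusted p = 0.141 at 10 µM against 0 µM).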
